A study of Homo sapiens with 24 samples.

Results

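The ATP-binding cassette (ABC) transporter genes ABCB1, ABCA5 and ABCB10 were followed by TT-seq, the sequencing of briefly labelled newly made RNA, in human colorectal adenocarcinoma DLD1 cells in which a tagged subunit of the INTAC complex can be degraded. The 3 genes are 3 of the 7223 genes the deposited files list, and they were taken by symbol. They had been chosen by their measured values across all 12 groups of the study, so their levels and differences are given below as a description and without a test. Tests are given only for other genes.

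The study joined 24 libraries in 12 groups of 2, made in 2 batches of 12 libraries. Batch 1 held the line labelled INTS11-dTAG (a dTAG tag knocked into INTS11), the line labelled INTS8-dTAG (the tag knocked into INTS8) and the line labelled INTS8-dTAG_INTS8-N211del (tagged INTS8 plus ectopic INTS8-N211del, called the N211del line below), each after 3 h of DMSO or 3 h of dTAG13. Batch 2 held INTS11-dTAG and N211del cells after 0 h, 1 h or 3 h of dTAG13, with no DMSO group of its own. dTAG13 is a small molecule that brings proteins carrying the tag to an E3 ligase for degradation, so it acts on the protein and the labels cannot be checked on the RNA of the tagged gene. Protein levels were not analysed here. Every library came from a tagged line, and an untagged line given dTAG13 was not analysed here. Whether a line is 1 clone, and which promoter drives INTS8-N211del, is not given in the labels. The labels call the libraries of a group biological duplicates without naming separate cultures, so p-values cover the scatter of these libraries alone, and part or all of it may be technical.

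INTAC joins the Integrator complex to the phosphatase PP2A. INTS11 is its RNA endonuclease, which cuts nascent RNA and ends transcription early, and INTS8 is the subunit that holds PP2A in the complex, where it opposes the kinases that release paused RNA polymerase II. ABC transporters use ATP to move substrates across membranes. ABCB1, also called P-glycoprotein or MDR1, is the efflux pump of the plasma membrane that removes many drugs from cells and is known for its expression at the surface of intestinal epithelium. ABCA5 is a lipid transporter of lysosomes and late endosomes, and ABCB10 sits in the inner mitochondrial membrane and is needed for normal haem synthesis.

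The promoter windows of the 3 genes are shown because they differ in base composition and in which of 5 promoter motifs they hold. Each window runs from 250 bases before to 50 bases after a RefSeq start on GRCh38.p14. All 4 lie on the minus strand and are written 5′ to 3′ along the gene. ABCB1 has an upstream start (chr7:87713246-87713545) and a downstream start (chr7:87600835-87601134), ABCA5 starts in chr17:69327084-69327383, and ABCB10 starts in chr1:229558658-229558957. Capitals mark every match, on either strand, to any of the 5 motifs. The motif bound by the factor NF-Y is CCAAT. The motif known as the GC box is GGGCGG, and the AP-1 element is TGANTCA. The E-box is written as CACGTG, and the motif of the TATA box as TATAAA.
ABCB1 upstream start: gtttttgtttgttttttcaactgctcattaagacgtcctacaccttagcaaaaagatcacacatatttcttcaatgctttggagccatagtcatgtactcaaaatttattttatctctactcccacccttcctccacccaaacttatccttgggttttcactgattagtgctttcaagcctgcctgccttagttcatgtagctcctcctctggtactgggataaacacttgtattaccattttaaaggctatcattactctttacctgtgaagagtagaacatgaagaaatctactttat
ABCB1 downstream start: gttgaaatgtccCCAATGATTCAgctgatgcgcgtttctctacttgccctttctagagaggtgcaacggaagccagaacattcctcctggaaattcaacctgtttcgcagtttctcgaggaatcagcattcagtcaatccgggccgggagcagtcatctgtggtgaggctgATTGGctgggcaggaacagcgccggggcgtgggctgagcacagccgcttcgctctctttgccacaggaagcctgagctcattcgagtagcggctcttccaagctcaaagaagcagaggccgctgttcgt
ABCA5 start: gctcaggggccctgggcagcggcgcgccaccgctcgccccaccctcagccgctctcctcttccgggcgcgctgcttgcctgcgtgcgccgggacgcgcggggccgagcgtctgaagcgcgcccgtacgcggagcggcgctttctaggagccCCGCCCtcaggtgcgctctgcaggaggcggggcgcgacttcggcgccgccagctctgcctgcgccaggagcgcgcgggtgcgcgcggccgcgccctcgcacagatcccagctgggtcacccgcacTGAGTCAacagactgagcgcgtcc
ABCB10 start: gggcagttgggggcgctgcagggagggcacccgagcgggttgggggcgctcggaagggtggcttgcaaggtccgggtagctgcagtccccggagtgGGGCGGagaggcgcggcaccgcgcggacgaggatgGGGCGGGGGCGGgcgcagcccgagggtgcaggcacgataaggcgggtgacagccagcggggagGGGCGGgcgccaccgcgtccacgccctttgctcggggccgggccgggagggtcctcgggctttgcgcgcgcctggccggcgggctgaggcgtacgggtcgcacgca

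The downstream ABCB1 window held 2 CCAAT boxes, of which the one nearer the start reads ATTGG along the gene, and 1 AP-1 element that overlaps the farther CCAAT box by 1 base. The upstream ABCB1 window held none of the 5 motifs. ABCA5 held 1 GC box, read as CCGCCC, and 1 AP-1 element after its start, and ABCB10 held 4 GC boxes. Among 35116 RefSeq promoter windows of the same length, 34.6% held a CCAAT box, 45.0% a GC box, 7.71% an AP-1 element, 7.26% an E-box and 11.5% a TATA box. G and C made up 37.7% of the upstream ABCB1 window, 55.3% of the downstream one, 76.3% of ABCA5 and 77.3% of ABCB10, beside a median of 58.7% over all windows.

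The values themselves bear on which ABCB1 span was counted. Deposited values times gene length came out as whole numbers within 0.02 in batch 1. In batch 2 they did so with lengths 1 bp longer and 1 scaling factor per library. For ABCB1 the length that did this in batch 1 was 97868 bp. That is exactly the distance from the downstream start to the end of the gene, whereas the whole RefSeq gene measures 210279 bp. The corresponding lengths were 82823 bp for ABCA5 and 42126 bp for ABCB10, both equal to their RefSeq gene lengths. Such equality was found for 18.9% of 6747 genes compared, and the gene models behind the counting are not given in the sources. ABCB1 rested on 1606 to 6530 of these whole-number units per library, ABCA5 on 76 to 345 and ABCB10 on 493 to 1032, which would give a counting error of at most 2.50%, 11.5% and 4.50% if each unit were 1 read. Summed over all genes, a library held between 5517104 and 8119831 units in batch 1 and between 8709275 and 11266619 in batch 2.

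A large share of all genes moved with treatment, which is the background for every count below. At an adjusted p under 0.05 (limma), 3 h of dTAG13 in batch 1 left 19.4% of 6579 genes higher and 19.8% lower in the INTS11 line, 34.6% higher and 21.0% lower in the INTS8 line, and 48.5% higher and 7.1% lower in the N211del line. In batch 2 the INTS11 line had 46.0% of 6950 genes called up and 9.86% called down at 1 h, and 36.0% up and 19.3% down at 3 h. For the N211del line the shares were 66.0% up and 4.92% down at 1 h, and 49.7% up and 13.8% down at 3 h. Of the 12 marker genes of colorectal epithelium, 10 were listed, with EPCAM between 111 and 156 and CDX2 between 64.1 and 146 in every library. KRT20 was at most 0.126 and CLDN4 was listed at 0 in batch 2. Of 4 fibroblast markers COL1A1 was listed, at up to 0.318, and none of 4 blood and endothelial markers was listed. In 6 of the 12 groups the replicates differed by no more than counting units predicts, and the effect of averaging such pairs is given in the closing section.

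ABCB1 was about 1.89-fold to 2.02-fold higher after dTAG13 in both lines with tagged INTS8, and differed far less from its control in the line with tagged INTS11. In batch 1 the INTS8 line gave 19.5 and 21.1 FPKM with DMSO and 42.3 and 39.7 with dTAG13. The N211del line gave 16.7 and 16.7 with DMSO and 31.7 and 34.2 with dTAG13. INTS11 cells gave 16.4 and 16.4 with DMSO and 18.7 and 17.4 with dTAG13. The treated libraries lay above both controls in each line, but the gap in the INTS11 line was far narrower. Between group means of log2(value + 0.1), the difference of treated from control was 1.01 ± 0.08 (fitted SE, n = 2 a group) in the INTS8 line, a 2.02-fold level, 0.98 ± 0.08 in N211del cells and 0.13 ± 0.08 in INTS11 cells. These differences exceeded those of 91.7%, 90.9% and 69.8% of the 6579 genes.

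In batch 2 ABCB1 in the N211del line went from 24.0 and 25.8 FPKM at 0 h to 48.5 and 49.6 at 1 h and 47.0 and 47.3 at 3 h. In the INTS11 line it went from 12.7 and 12.2 at 0 h to 14.2 and 13.5 at 1 h and 11.5 and 11.7 at 3 h. The rise in the N211del line was thus present in full at 1 h, while the INTS11 line stood slightly above its start at 1 h and slightly below it at 3 h, without overlap either time. On the log2 scale the differences from 0 h were 0.97 ± 0.04 at 1 h and 0.92 ± 0.04 at 3 h in N211del cells, and 0.15 ± 0.04 and -0.10 ± 0.04 in INTS11 cells (n = 2 a group). They exceeded those of 88.9% and 89.3% of the 6950 genes in N211del cells, and of 49.2% and 24.1% in INTS11 cells. From 1 h to 3 h ABCB1 dropped by 0.06 in N211del cells and by 0.25 in INTS11 cells, with every 3 h library below both 1 h libraries. In order, batch 2 ran from INTS11 at 3 h (11.6 ± 0.133, SD, n = 2) over INTS11 at 0 h (12.5 ± 0.305), INTS11 at 1 h (13.8 ± 0.467), N211del at 0 h (24.9 ± 1.28) and N211del at 3 h (47.1 ± 0.227) to N211del at 1 h (49.0 ± 0.787). No neighbouring groups overlapped in that order, nor in the order of batch 1.

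**Figure D1:**
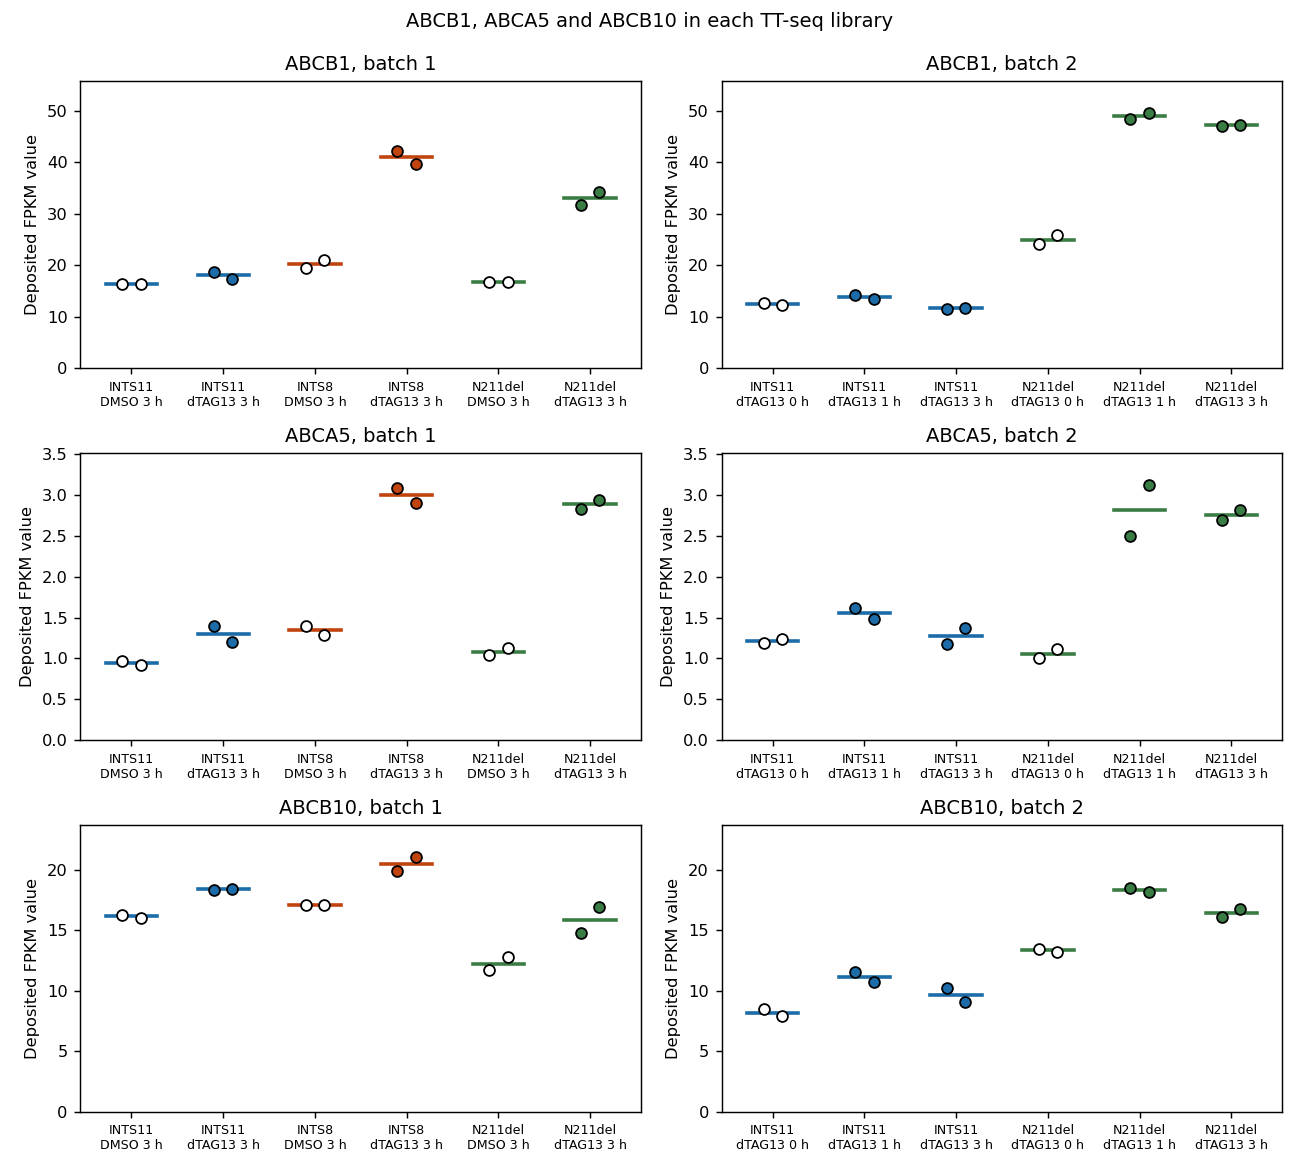
Deposited FPKM values (vertical axes) of ABCB1, ABCA5 and ABCB10 in each library (points), by group, with the group mean as a line; open points are DMSO or 0 h, filled points dTAG13 for 1 h or 3 h. ABCB1 reaches 39.7 to 42.3 in treated INTS8 libraries and 46.97 to 49.6 in treated N211del libraries of batch 2, and stays between 11.5 and 18.7 in every INTS11 library.

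ABCA5 was at a far lower level than ABCB1, and it too was clearly above its controls after dTAG13 in both lines with tagged INTS8. In batch 1 it went from 1.40 and 1.29 to 3.09 and 2.91 FPKM in the INTS8 line, and from 1.04 and 1.12 to 2.84 and 2.95 in the N211del line. In the INTS11 line it went from 0.966 and 0.918 to 1.40 and 1.20. All treated libraries lay above the controls of their line. The log2 differences were 1.10 ± 0.14, 1.34 ± 0.14 and 0.42 ± 0.14 (fitted SE, n = 2 a group), or 2.14-fold, 2.54-fold and 1.34-fold. Whether ABCA5 or ABCB1 had the larger log2 difference depends on the pseudocount, since with 1 in place of 0.1 ABCA5 gave 0.77 and 0.90 in the INTS8 and N211del lines and ABCB1 gave 0.98 and 0.94.

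In batch 2 ABCA5 was 1.00 and 1.11 FPKM at 0 h, 2.50 and 3.13 at 1 h and 2.7003 and 2.82 at 3 h in the N211del line. INTS11 cells gave 1.18 and 1.24, then 1.62 and 1.49, then 1.18 and 1.37. The N211del libraries at 1 h and 3 h overlapped each other and lay above both 0 h libraries, whereas the INTS11 line was above its start at 1 h and overlapped it at 3 h. The log2 differences from 0 h were 1.32 ± 0.12 and 1.31 ± 0.12 in the N211del line and 0.34 ± 0.12 and 0.07 ± 0.12 in INTS11 cells. Leaving out replicate 2 of the INTS11 line at 3 h turned the last of these to -0.03. Ordered by mean in batch 1, treated N211del (2.89 ± 0.0768, SD, n = 2) and treated INTS8 (3.00 ± 0.128) overlapped, as did treated INTS11 (1.30 ± 0.145) and INTS8 with DMSO (1.35 ± 0.0768).

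ABCB10 was a little higher after dTAG13 in all 3 lines. In batch 1 it went from 16.3 and 16.0 to 18.3 and 18.4 FPKM in the INTS11 line, and from 17.1 and 17.1 to 19.9 and 21.1 in the INTS8 line. In the N211del line it went from 11.7 and 12.7 to 14.8 and 16.9. The treated libraries were above both controls in each line, by log2 differences of 0.19 ± 0.08, 0.26 ± 0.08 and 0.37 ± 0.08 (fitted SE, n = 2 a group). These exceeded the differences of 74.5%, 67.0% and 66.9% of the 6579 genes. In batch 2 the INTS11 line gave 8.45 and 7.87 at 0 h, 11.5 and 10.7 at 1 h and 10.2 and 9.08 at 3 h. The N211del line gave 13.4 and 13.2, then 18.4 and 18.2, then 16.1 and 16.8. ABCB10 thus stood highest at 1 h in both lines, with 1.36-fold and 1.37-fold the 0 h level, and lay between the other times at 3 h. Its differences from 0 h exceeded those of 76.7% and 66.8% of the 6950 genes at 1 h and 3 h in the INTS11 line. For the N211del line these shares were 63.6% and 61.4%. In batch 1 treated N211del overlapped INTS11 with DMSO in the order of levels, and no other neighbouring groups of either batch overlapped.

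**Figure D2:**
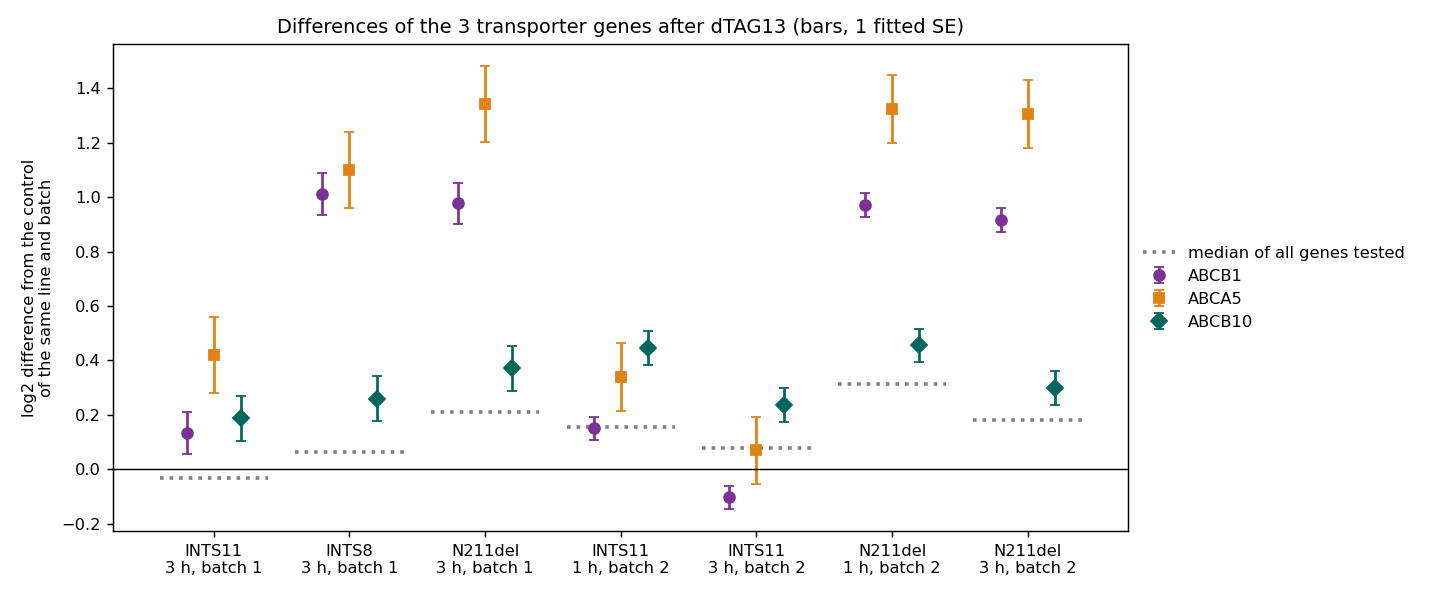
Log2 difference of each transporter gene from the control of the same line and batch (vertical axis) in the 7 treatment comparisons, with bars of 1 fitted SE; dotted lines give the median of all genes tested. ABCB1 and ABCA5 lie between 0.92 and 1.34 in the lines with tagged INTS8 and between -0.10 and 0.42 in the INTS11 line, while ABCB10 lies between 0.19 and 0.45 throughout.

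The median gene also moved, by -0.03, 0.06 and 0.21 in the INTS11, INTS8 and N211del lines of batch 1, by 0.16 and 0.08 in the INTS11 line at 1 h and 3 h of batch 2, and by 0.31 and 0.18 in the N211del line. Relative to it ABCB1 stood at 0.17, 0.95 and 0.77 in batch 1, at -0.01 and -0.18 in the INTS11 line of batch 2 and at 0.66 and 0.73 in the N211del line. ABCA5 stood at 0.45, 1.04 and 1.13, at 0.18 and -0.01, and at 1.01 and 1.12. ABCB10 remained above the median gene in every comparison, by 0.12 to 0.29. The sources used here do not give how the authors scaled libraries against each other, and levels per cell and levels relative to other genes cannot be told apart. Batch 1 values held no library factor, so the unit total of a library enters its values. With DMSO and then dTAG13, totals were 7026277 and 7102298, then 6762187 and 6632364, in the INTS11 line. They were 7311323 and 7419322, then 8119831 and 7576278, in the INTS8 line. The N211del line had 5614822 and 5517104, then 6179411 and 7019655. How far batch 1 shares and differences follow these totals was not tested.

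The difference between lines in response to dTAG13 was large for ABCB1 and ABCA5 and small for ABCB10. The log2 response at 3 h was higher by 0.88 ± 0.11 in the INTS8 line than in the INTS11 line for ABCB1, by 0.68 ± 0.20 for ABCA5 and by 0.07 ± 0.12 for ABCB10 (fitted SE). For the N211del line against the INTS11 line it was higher by 0.84 ± 0.11, 0.92 ± 0.20 and 0.18 ± 0.12 in batch 1. In batch 2 the same comparison at 3 h gave 1.02 ± 0.06, 1.24 ± 0.18 and 0.06 ± 0.09. The median gene gave 0.09, 0.26 and 0.11 in these 3 comparisons. Relative to it ABCB1 stood at 0.79, 0.58 and 0.91, ABCA5 at 0.59, 0.66 and 1.13, and ABCB10 at -0.02, -0.08 and -0.05. The comparisons of a batch share the INTS11 libraries.

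At rest the lines also differed, and for none of the 3 genes did the 2 batches give the same difference. With DMSO in batch 1 ABCB1 was 16.7 ± 0.0145 FPKM (SD, n = 2) in N211del cells and 16.4 ± 0.00723 in INTS11 cells, a log2 difference of 0.02 ± 0.08, while at 0 h in batch 2 the difference was 0.99 ± 0.04. ABCB10 was lower in the N211del line in batch 1, by -0.40 ± 0.08, and higher in batch 2, by 0.70 ± 0.06. ABCA5 differed by 0.18 ± 0.14 in batch 1 and -0.18 ± 0.12 in batch 2, without overlap of the libraries either time. The median gene differed between these lines by -0.17 in batch 1 and 0.05 in batch 2. The controls were DMSO for 3 h in one batch and 0 h of dTAG13 in the other, and control type and batch cannot be told apart. Within batch 1 the INTS8 line with DMSO was above the INTS11 line by 0.30 ± 0.08 for ABCB1, 0.47 ± 0.14 for ABCA5 and 0.08 ± 0.08 for ABCB10. For the median gene that difference was 0.10. The N211del line was below the INTS8 line by log2 differences of -0.28 ± 0.08, -0.29 ± 0.14 and -0.48 ± 0.08, beside -0.30 for the median gene.

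FPKM is per length of gene, so levels of ABC genes can be set beside each other, 18 of them in batch 1 and 20 in batch 2. ABCB1 had the highest group mean of them in treated INTS8 cells and in all 3 treated N211del groups, but in no control group and in no group of the INTS11 line. With DMSO it ranked 7 in INTS11 cells (16.4) and 4 in both INTS8 cells (20.3) and N211del cells (16.7), and at 0 h it ranked 6 in INTS11 cells (12.5) and 3 in N211del cells (24.9). In those 5 control groups ABCF1, a ribosome-associated protein, was higher than ABCB1, at 25.9, 24.5, 20.7, 17.1 and 30.9, as was its relative ABCF3, at 22.9, 24.5, 22.3, 19.5 and 25.1. ABCB10 ranked 8 with DMSO in every line and at 0 h in N211del cells, and 10 at 0 h in INTS11 cells. ABCA5 ranked between 15 and 17 in all 12 groups. In control libraries of the INTS11 line in batch 1 ABCB1 and ABCB10 were nearly level, at 1.01 and 1.03 ABCB1 per ABCB10, and in treated INTS8 libraries the ratio was 2.13 and 1.89. At the low end ABCG1 had means of 0.163 and 0.178 over the libraries of batch 1 and batch 2, and ABCA8, listed only in batch 2, was at most 0.0161.

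Of a list of 45 other ABC genes, 17 were listed, and 15 could be tested in batch 1 and 16 in batch 2 after a minimum mean of 0.1. In the INTS11 line at 3 h of batch 1, 4 of 15 rose and 3 fell, beside the 19.4% and 19.8% of all genes above, with a median log2 change of -0.08 against -0.03 over all genes. In the INTS8 line 7 rose and 3 fell (median 0.33 against 0.06), beside 34.6% and 21.0%, and once the median of every library was set equal (centring) 7 rose and 5 fell. In the N211del line 10 rose and 0 fell (median 0.36 against 0.21), beside 48.5% and 7.1%, and after centring 6 rose and 3 fell. In batch 2 the INTS11 line had 7 of 16 higher and 1 lower at 1 h (4 and 4 centred), and 6 higher and 4 lower at 3 h (4 and 5 centred). The N211del line had 11 higher and 0 lower at 1 h (7 and 3 centred), and 9 higher and 1 lower at 3 h (7 and 4 centred). The counts of falls in the N211del line therefore rest on the scaling. No share of all genes after centring is given here, so centred counts, here and below, lack that background. The rises include ABCG1 and ABCG4 where their controls were under 0.1 and they reached the minimum through other groups. Over genes with a control mean of at least 0.1, a choice made after seeing the data, 3, 6 and 9 of 14 rose in batch 1, 6 and 5 of 15 in the INTS11 line of batch 2 and 9 and 8 of 14 in the N211del line, and the falls stayed as many.

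ABCG2, the breast cancer resistance protein and like ABCB1 a drug pump of the plasma membrane, rose in every one of the 7 treatment comparisons. In batch 1 it went from 1.04 ± 0.0615 to 1.75 FPKM in the INTS11 line, where both treated libraries had that value. It went from 1.07 ± 0.0820 to 2.65 ± 0.0513 in the INTS8 line and from 0.623 ± 0.0615 to 1.80 ± 0.390 in the N211del line (SD, n = 2). The log2 changes were 0.70 (limma adjusted p = 0.0013), 1.23 (6.7e-07) and 1.38 (1.19e-07). At 3 h of batch 2 they were 0.85 in the INTS11 line (limma adjusted p = 0.00133) and 1.47 in the N211del line (2.31e-05). ABCG2 thus rose in the INTS11 line too, where ABCB1 differed from its control by 0.13 or less at 3 h.

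CFTR, the chloride channel of epithelial cells, likewise rose in all 7. Its changes at 3 h were 0.67, 1.32 and 1.11 in the INTS11, INTS8 and N211del lines of batch 1 (limma adjusted p = 3.26e-05, 3.13e-10 and 5.77e-09), and 0.51 and 1.33 in the INTS11 and N211del lines of batch 2 (0.000139 and 1.2e-07). ABCB9, a peptide transporter of lysosomes, rose by 0.79 in the INTS8 line, 1.11 in the N211del line of batch 1 and 0.96 at 3 h of batch 2 (limma adjusted p = 3.12e-05, 2.74e-07 and 2.97e-06). In the INTS11 line ABCB9 rose by 0.42 at 3 h of batch 2 (0.00122), and its 0.32 in batch 1 did not pass (0.0591), though it did after centring (0.36, adjusted p = 0.0244). ABCG1, a cholesterol exporter, was very low, with at most 0.102 FPKM in batch 1 controls and 0.128 to 0.435 in treated libraries, with every control mean under 0.1. It reached the minimum mean in batch 1 only through its treated groups, so no test of it is given there. In batch 2 it was listed at 0 and at 0.0255 in the N211del line at 0 h and at 0.163 and 0.227 at 3 h, and INTS11 cells gave 0.176 and 0.180 at 0 h. ABCG4 was listed at 0 in both INTS11 libraries at 0 h and at 0.0831 and 0.212 at 3 h, so no fold is given, although the fit counts it among the genes that rose there.

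The falls were fewer and smaller. ABCF3, a cytosolic family member without membrane domains, fell by 0.37 and 0.36 in the INTS11 line of batch 1 and batch 2, by 0.50 in the INTS8 line and by 0.26 in the N211del line of batch 2 (limma adjusted p = 0.0108, 0.0117, 0.000672 and 0.0421), the last being -0.46 after centring. ABCB8, of the inner mitochondrial membrane, fell by 0.37 and 0.33 in the INTS11 and INTS8 lines of batch 1 (0.00416 and 0.00558). ABCF1 fell by 0.22 in the INTS8 line (0.0211), and the peroxisomal transporter ABCD3 fell by 0.16 in the INTS11 line at 3 h of batch 2 (0.00864).

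**Figure D3:**
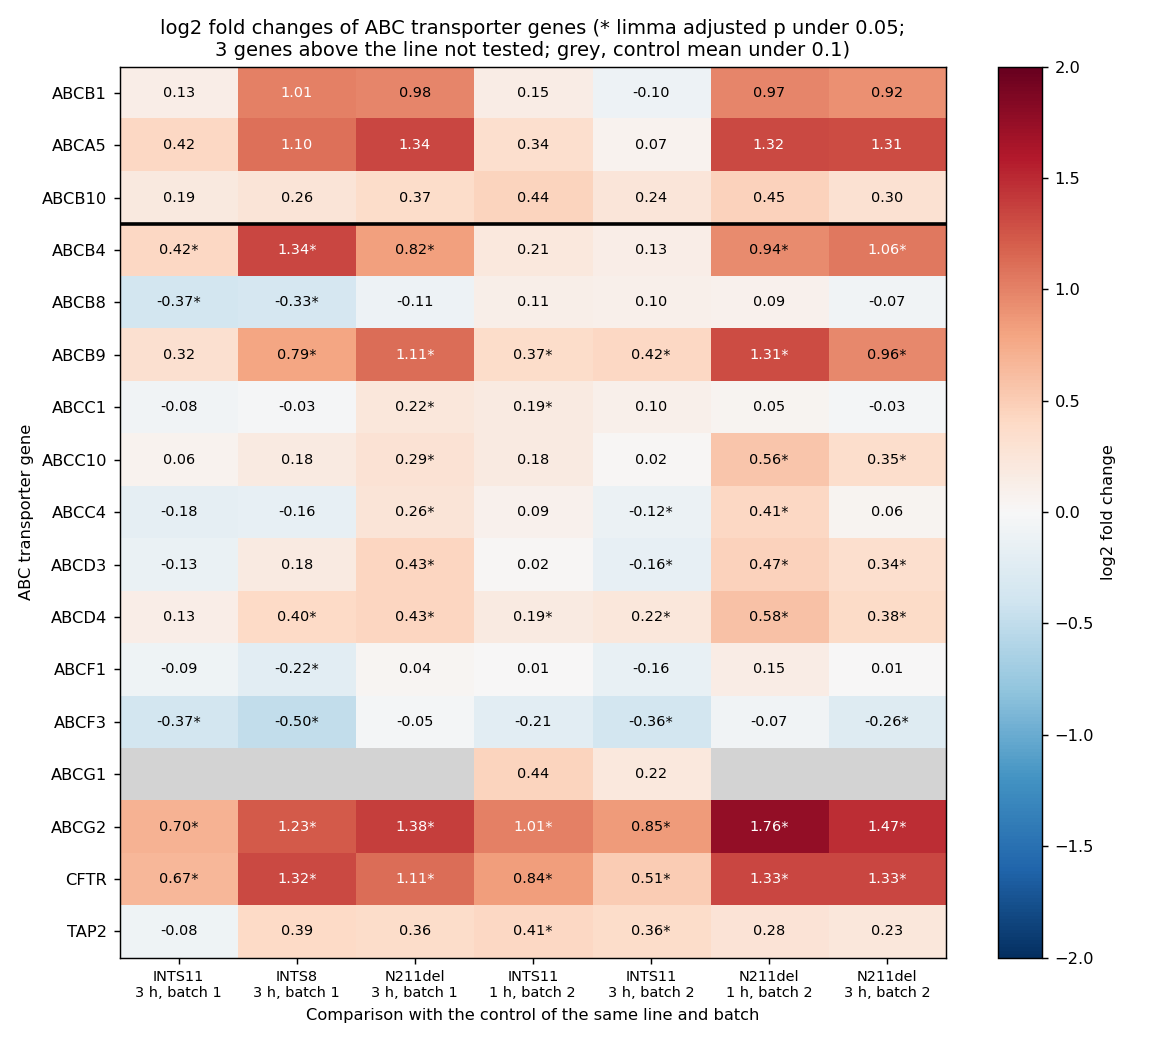
Log2 fold changes (colour and number) of ABCB1, ABCA5 and ABCB10 (above the line, not tested) and of 14 other ABC genes (rows) in the 7 treatment comparisons (columns); a star marks a limma adjusted p under 0.05 and grey a gene whose control mean is under 0.1. ABCG2 and CFTR are starred in all 7 columns, and ABCB4 in the same columns where ABCB1 is near 1, plus the INTS11 line of batch 1.

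The response of other ABC genes was compared between lines by a test of the difference itself. Between the INTS8 and INTS11 lines 3 of 15 responded more and 0 less in the INTS8 line, beside 19.4% and 6.0% of all genes (4 and 1 after centring), a share near that of all genes. Between the N211del and INTS11 lines 9 of 15 responded more and 0 less in batch 1, beside 43.7% and 4.8% (2 and 1 centred), and 8 of 16 and 0 in batch 2, beside 35.8% and 15.2% (6 and 1 centred), so the count of batch 1 rests on the scaling. CFTR was among them in all 3, with differences of 0.66, 0.45 and 0.81 (limma adjusted p = 0.00174, 0.0166 and 7.58e-05), of which the second did not pass after centring (0.15, adjusted p = 0.233). The main counts of N211del against INTS11 also include ABCG1, whose N211del controls were under 0.1. At rest 2 of 15 were higher and 1 lower in the INTS8 than in the INTS11 line, beside 26.8% and 3.91% (1 and 3 centred). The N211del line had 0 higher and 7 lower than the INTS8 line, beside 5.03% and 58.7% (3 and 5 centred), and 1 higher and 7 lower than the INTS11 line, beside 19.7% and 45.9% (4 and 6 centred). At 0 h of batch 2 it had 8 of 16 higher and 2 lower than the INTS11 line, beside 38.4% and 31.6%, with ABCG1 among the lower. CFTR was lower in the N211del than in the INTS11 line in batch 1, by -1.61, and higher at 0 h of batch 2, by 0.23 (limma adjusted p = 3.09e-11 and 0.00903).

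ABCB4, the phospholipid floppase of bile canaliculi and the closest relative of ABCB1, is the nearest gene with values on one side of it in the RefSeq gene table of GRCh38.p14. ABCB1 was 9.48 to 24.1 times as high per length, and ABCB4 followed it closely. In batch 1 ABCB4 went from 1.70 and 1.51 to 4.23 and 4.19 FPKM in the INTS8 line, from 1.54 and 1.55 to 2.73 and 2.89 in the N211del line, and from 1.14 and 1.00 to 1.24 and 1.70 in the INTS11 line. These are log2 changes of 1.34, 0.82 and 0.42 (limma adjusted p = 7.87e-08, 5.97e-05 and 0.0287). In batch 2 ABCB4 rose from 1.99 and 2.40 at 0 h to 4.17 and 4.39 at 1 h and 4.55 and 4.77 at 3 h in the N211del line, by 0.94 (0.59 centred) and 1.06 (0.000407 and 0.000239). INTS11 cells gave 0.573 and 0.570 at 0 h and 0.688 and 0.585 at 3 h, a change of 0.13 that did not pass (0.507). The response of the INTS8 line exceeded that of the INTS11 line by 0.92 (0.00193), and that of the N211del line did so by 0.40 in batch 1, which did not pass (0.112), and by 0.93 in batch 2 (0.00631). At rest ABCB4 was 1.77 higher in the N211del than in the INTS11 line in batch 2 (limma adjusted p = 5.92e-06) and 0.50 higher in batch 1 (0.00521). Both genes are similar in sequence, and the sources used here do not give how reads that fit both were counted.

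Other neighbours of ABCB1 behaved in different ways. Neighbours here are genes with values that overlap a transporter gene or come nearest on either side. No limit was set on distance, and genes without values were passed over, so a neighbour need not be adjacent. ADAM22, a membrane protein of the disintegrin family, rose by 1.24 and 1.50 in the INTS8 and N211del lines of batch 1 and by 1.43 and 1.50 in the N211del line at 1 h and 3 h of batch 2 (limma adjusted p = 6.19e-10, 3.41e-11, 3.66e-08 and 2.82e-08). In the INTS11 line its 0.22 in batch 1 and 0.02 at 3 h of batch 2 did not pass (0.0966 and 0.8), though the first did after centring (0.25, adjusted p = 0.0063). RUNDC3B overlaps the longer RefSeq span of ABCB1, but not the 97868 bp from the downstream start, and was low at 0.208 to 0.613 FPKM in batch 2. It rose by 0.65 and 0.70 in the INTS8 and N211del lines of batch 1 and by 1.02 and 1.09 in the N211del line of batch 2 (limma adjusted p = 0.0053, 0.00293, 0.000269 and 0.000232), and after centring it was 0.44 in the N211del line of batch 1 and 0.67 in it at 1 h of batch 2. STEAP4, a metalloreductase, rose by 0.48 in the INTS11 line and fell by 0.72 in the INTS8 line of batch 1 (0.00795 and 0.000125). SRI, the calcium-binding protein sorcin, fell in the INTS11 line by 0.43 and 0.22 at 3 h of batch 1 and batch 2 (0.000201 and 0.0142). In batch 1 it went from 22.4 and 25.0 to 26.6 and 27.2 FPKM in the INTS8 line. In the N211del line it went from 24.0 and 24.8 to 22.9 and 24.0 in batch 1, but from 20.7 and 22.6 at 0 h to 26.1 and 26.9 at 3 h of batch 2. SEMA3A, a secreted guidance factor, rose by 0.45 in the N211del line of batch 1 (6.69e-05), or 0.19 after centring, while its 0.04 and -0.03 in the INTS11 and INTS8 lines did not pass (0.702 and 0.779). After centring SEMA3A was called lower in the INTS8 line (-0.13, limma adjusted p = 0.0273). ELAPOR2 was tested in batch 2, where none of its changes passed, although after centring it was called lower in the INTS11 line at 1 h (-0.44, limma adjusted p = 0.0454). Over the 12 groups the log2 profile of ABCB1 had an r of 0.986 with ABCB4, 0.912 with ADAM22, 0.532 with SEMA3A and 0.276 with RUNDC3B. It was 0.258 with SRI, -0.582 with STEAP4 and -0.791 with ELAPOR2. These r are a description over points that share controls.

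**Figure D4:**
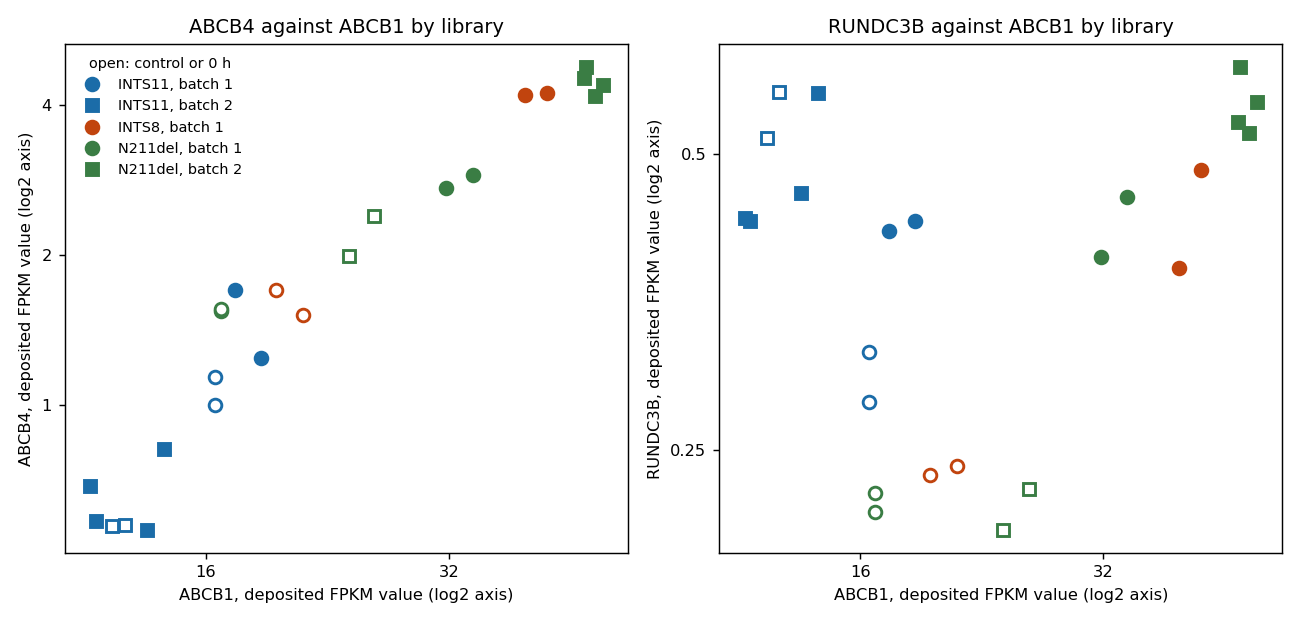
ABCB4 (left) and RUNDC3B (right) against ABCB1 in the 24 libraries, deposited FPKM on log2 axes; circles are batch 1, squares batch 2, open symbols DMSO or 0 h. ABCB4 runs from 0.561 to 4.77 along with ABCB1, whereas RUNDC3B in batch 2 is 0.519 and 0.578 in the INTS11 line at 0 h, where ABCB1 is 12.2 and 12.7, and 0.208 and 0.228 in the N211del line at 0 h.

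Over the 3 genes, 17 neighbours were tested in batch 1 and 18 in batch 2. Beside the shares of all genes given above, 4 rose and 1 fell in the INTS11 line of batch 1, 9 and 3 in the INTS8 line and 10 and 0 in the N211del line (7 and 2, 8 and 5, and 8 and 5 after centring). In batch 2 it was 8 and 1 at 1 h and 3 and 2 at 3 h in the INTS11 line, and 12 and 0 at 1 h and 11 and 2 at 3 h in the N211del line (5 and 6, 2 and 5, 8 and 3, and 9 and 3 centred). More neighbours fell after centring in each of the 7 comparisons. Around ABCA5, MAP2K6, a kinase of the p38 pathway, rose by 0.57, 0.77 and 0.86 in the 3 lines of batch 1 (limma adjusted p = 0.0142, 0.000773 and 0.000272), while PRKAR1A, a regulatory subunit of protein kinase A, passed in none of the 7 comparisons. After centring it passed in 5 of them, where PRKAR1A fell by 0.13 to 0.32. CDC42EP4 rose in all comparisons but the INTS11 line of batch 1 (0.18, limma adjusted p = 0.0642), where it passed after centring (0.21, adjusted p = 0.00533). SLC39A11, a zinc transporter, rose by 0.36 in the INTS8 line (0.00587) and by 0.33 in the N211del line at 3 h of batch 2 (0.000505), or 0.13 centred. AMZ2 rose by 0.41 and 0.55 in the INTS11 and N211del lines of batch 1 (0.0163 and 0.00112), and the second did not pass after centring (0.29, adjusted p = 0.143). ABCA10 overlaps ABCA5 in the gene table and was not analysed here.

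Around ABCB10, GALNT2, an enzyme that starts O-linked glycans, rose by 0.51 and 0.79 in the INTS8 and N211del lines of batch 1 (limma adjusted p = 6.72e-05 and 2.01e-07). CCSAP, a spindle protein, rose by 0.36 and 0.63 there (0.000522 and 6.21e-07), the second being 0.37 after centring. RHOU, a small GTPase, fell by 0.63 in the INTS8 line (2.84e-05), and COG2, a Golgi tethering subunit, fell by 0.35 in it (0.00074). C1orf198 rose by 0.23 in the N211del line of batch 1 (0.0194), where centring turned its sign (-0.03), and by 0.27 at 3 h of batch 2 (0.000748), which did not pass after centring (0.07, adjusted p = 0.153). ACTA1 passed in 1 comparison, with 1.32 in the INTS11 line at 1 h (0.0381), and in none after centring (1.17 there, adjusted p = 0.0674). Its values there were low and uneven, at 0.653 and 0.244 FPKM at 0 h and 0.860 and 1.58 at 1 h.

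The genes whose profile over the 12 groups was most like each transporter were found by Pearson r of log2 group means, after the mean of each batch was subtracted, among 6266 genes with a mean of at least 1 in both batches. The 12 points share libraries and controls and r is given as a description. For ABCB1 they were its neighbour ABCB4 (r = 0.986), the polyamine enzyme gene ODC1 (0.984), the kinase gene ABL1 (0.983), LHFPL6 (0.983) and MYBL1 (0.983). For ABCA5 they were FAM117A (0.988), the lysosomal protease gene LGMN (0.987), PNP (0.987), TFCP2L1 (0.986) and FGFR1 (0.985). For ABCB10 they were ZC3H8 (0.992), FAIM (0.987), TCHP (0.986), DEPDC5 (0.986) and CSPP1 (0.985). No gene stood in more than 1 of these lists. Among themselves the profiles of ABCB1 and ABCB10 gave 0.852, ABCB1 and ABCA5 0.829, and ABCA5 and ABCB10 0.625. By Spearman rho 2, 0 and 1 of the 5 genes stayed among the 5 most like ABCB1, ABCA5 and ABCB10, and by r over the 7 fold changes none did.

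**Figure D5:**
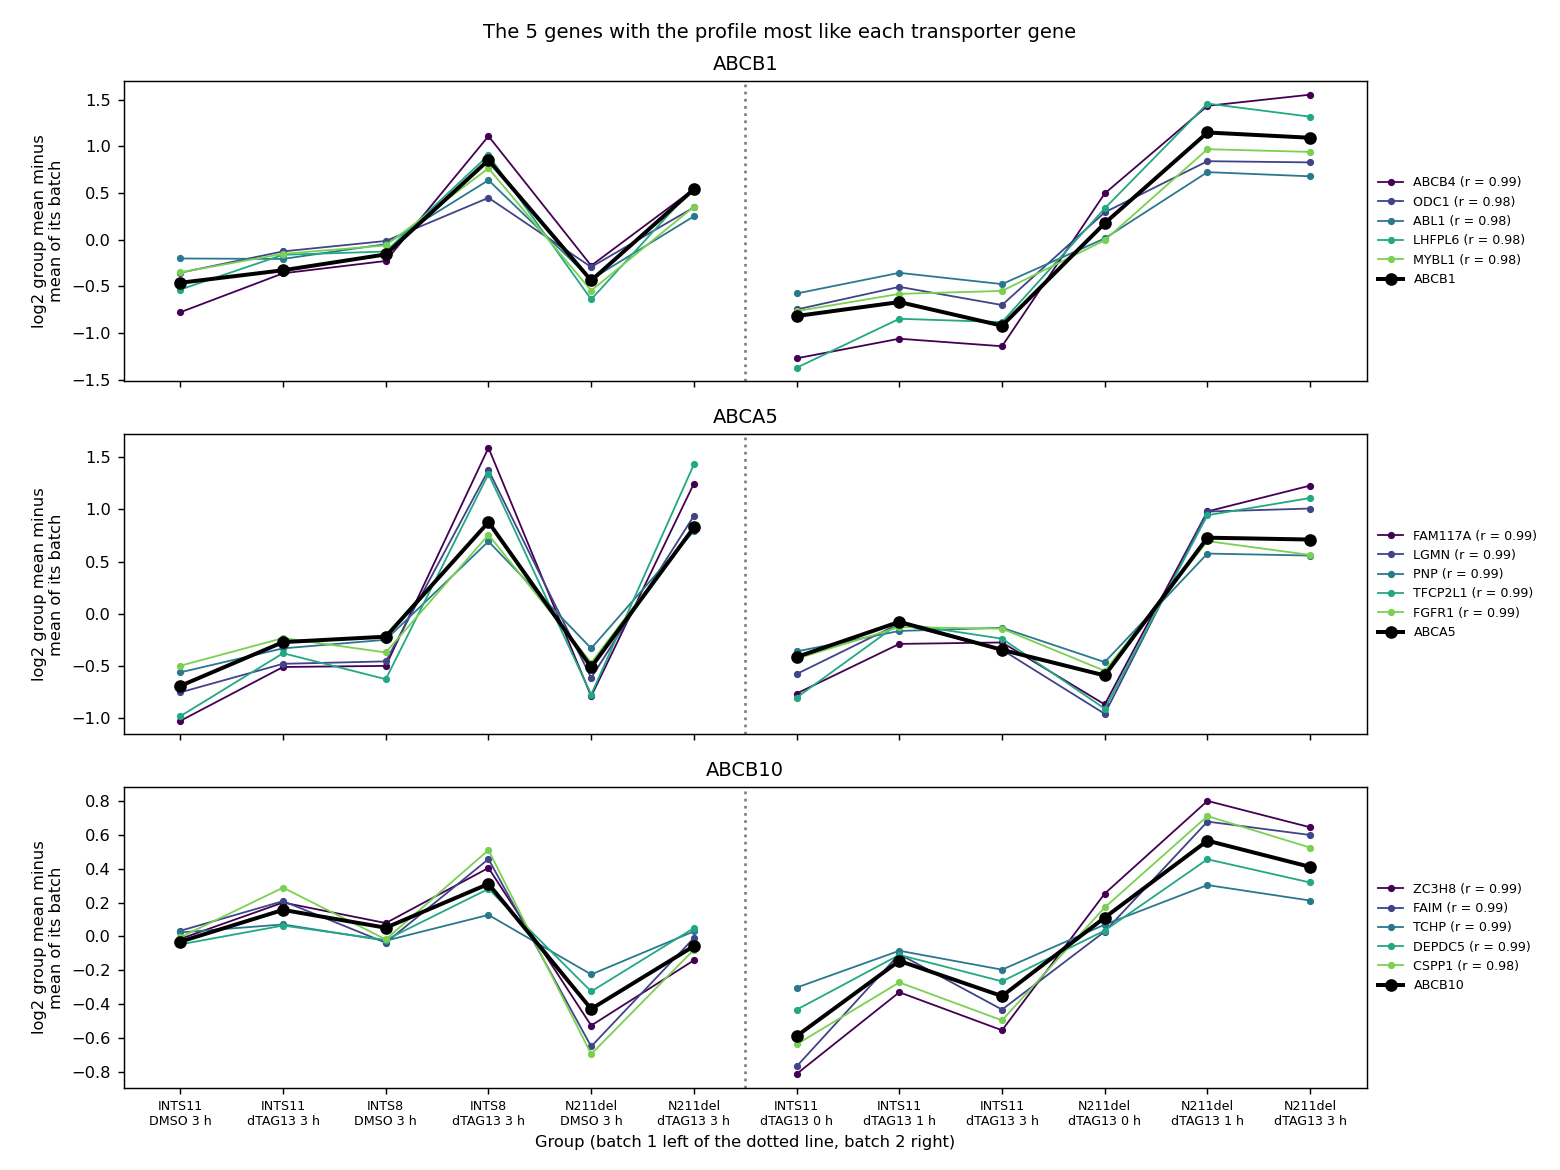
Log2 group means minus the mean of their batch (vertical axes) over the 12 groups for ABCB1, ABCA5 and ABCB10 (black) and for the 5 genes with the highest Pearson r with each (coloured, r in the legend); lines are not joined across batches. ABCB1 and its 5 genes are highest in treated INTS8 cells in batch 1 and in treated N211del cells in batch 2.

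Genes that work with the 3 transporters were read from further lists, chosen with earlier results of these data known. Of 26 transcription factors and coregulators linked to ABCB1, 14 were tested. In the INTS11, INTS8 and N211del lines of batch 1, 2, 4 and 7 rose and 6, 4 and 2 fell (5 and 7, 4 and 8, and 5 and 6 after centring). At 3 h of batch 2, 3 rose and 4 fell in the INTS11 line and 6 rose and 4 fell in the N211del line (3 and 7, and 5 and 9). Of all genes 19.4%, 34.6% and 48.5% rose and 19.8%, 21.0% and 7.1% fell in batch 1. In batch 2, 36.0% and 49.7% of all genes rose and 19.3% and 13.8% fell. The median log2 changes of the listed factors were -0.14, -0.06 and 0.18 in batch 1 and 0.00 and 0.07 in batch 2, each below that of all genes. FOXO1, a forkhead factor, rose in all 7 comparisons, from 12.8 ± 0.121 to 28.4 ± 0.937 FPKM in the INTS8 line (SD, n = 2), a log2 change of 1.14 (limma adjusted p = 3.03e-10). In the N211del line it rose by 1.10 and 0.78 at 3 h of batch 1 and batch 2 (6.94e-10 and 1.93e-07), and in the INTS11 line by 0.43 and 0.36 (0.000686 and 8.45e-05). NFYB, a subunit of the factor that binds CCAAT boxes, rose in all 7, by 0.74 and 0.68 in the INTS11 line at 3 h (1.35e-07 and 4.01e-05). EGR1, an immediate early factor, fell in all 7, by 1.04, 0.83 and 0.95 in batch 1 (0.000288, 0.000555 and 0.000213). ARNT, the partner of the aryl hydrocarbon receptor, fell in the INTS11 line by 0.33 and 0.44 at 3 h (0.00626 and 0.00054).

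Of 24 haem synthesis and handling genes, 16 were tested beside ABCB10. At 3 h of batch 1, 1, 9 and 7 rose and 5, 2 and 1 fell in the INTS11, INTS8 and N211del lines (2 and 6, 7 and 4, and 5 and 5 after centring). In batch 2, 3 rose and 2 fell in the INTS11 line and 11 rose and 2 fell in the N211del line (3 and 4, and 7 and 3). The shares of all genes were 19.4%, 34.6% and 48.5% up and 19.8%, 21.0% and 7.1% down in batch 1. In batch 2 they were 36.0% and 49.7% up and 19.3% and 13.8% down. The median changes of the haem genes were -0.16, 0.20 and 0.21 in batch 1 and 0.01 and 0.25 in batch 2. Those of all genes were -0.03, 0.06 and 0.21 in batch 1 and 0.08 and 0.18 in batch 2. ALAS1, the first and rate-limiting enzyme of haem synthesis, rose by 0.81 in the INTS8 line and by 0.94 and 0.69 in the N211del line of batch 1 and batch 2 (limma adjusted p = 1.56e-09, 1.5e-10 and 2.94e-06). TMEM14C, a mitochondrial porphyrin carrier, rose by 0.44 and 0.81 in the INTS11 line at 3 h (5.2e-05 and 8.84e-05). CPOX, a later enzyme of the pathway, fell by 0.42 in the INTS11 line of batch 1 (4.94e-05). BLVRA, which reduces biliverdin, fell by 1.25 in the INTS8 line and by 0.74 and 0.85 in the N211del line (4.91e-11, 2.17e-07 and 1.2e-06). The haem-binding PGRMC1 rose by 0.85 in the INTS8 line and by 0.64 and 0.80 in the N211del line (3.71e-08, 2.5e-06 and 2.94e-05), the second being 0.38 after centring.

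Of 40 drug metabolising enzymes and uptake carriers, 18 were tested in batch 1 and 21 in batch 2. At 3 h of batch 1, 6, 5 and 10 rose and 2, 5 and 2 fell in the INTS11, INTS8 and N211del lines (7 and 3, 5 and 7, and 6 and 6 after centring). In batch 2, 13 rose and 1 fell in the INTS11 line and 13 rose and 3 fell in the N211del line (11 and 1, and 7 and 4). The shares of all genes were 19.4%, 34.6% and 48.5% up and 19.8%, 21.0% and 7.1% down in batch 1. In batch 2 they were 36.0% and 49.7% up and 19.3% and 13.8% down. The median changes of the listed enzymes and carriers were 0.07, -0.04 and 0.35 in batch 1 and 0.24 and 0.22 in batch 2. Those of all genes were -0.03, 0.06 and 0.21 in batch 1 and 0.08 and 0.18 in batch 2. SLC22A3, an organic cation carrier, rose in all 7, from 0.207 ± 0.0476 to 0.971 ± 0.0408 FPKM in the INTS8 line (SD, n = 2), a log2 change of 1.81 (limma adjusted p = 1.22e-07). In the INTS11 line of batch 1 its control mean was 0.0817, and without SLC22A3 5 of 17 rose there. CYP1B1, a cytochrome P450 enzyme, rose in all 7, by 1.20 in the INTS8 line (6.88e-11). SULT1C3, a sulphotransferase, rose by 0.63 in the INTS11 line and fell by 0.74 and 1.28 in the INTS8 and N211del lines of batch 1 (0.000985, 8.24e-05 and 5.12e-08). UGT1A6, which shares exons with its neighbours and is uncertain for that reason, rose by 1.30 in the INTS11 line at 3 h of batch 2 (3.11e-05).

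Of 22 lysosomal and sterol efflux genes, 10 were tested in batch 1 and 11 in batch 2 beside ABCA5. At 3 h of batch 1, 2, 6 and 6 rose and 1, 2 and 2 fell in the INTS11, INTS8 and N211del lines (4 and 1, 5 and 2, and 5 and 2 after centring). In batch 2, 3 rose and 0 fell in the INTS11 line and 6 rose and 1 fell in the N211del line (3 and 1, and 5 and 2). The shares of all genes were 19.4%, 34.6% and 48.5% up and 19.8%, 21.0% and 7.1% down in batch 1. In batch 2 they were 36.0% and 49.7% up and 19.3% and 13.8% down. The median changes of the listed genes were 0.07, 0.42 and 0.50 in batch 1 and 0.09 and 0.29 in batch 2, each above that of all genes. These counts include ABCG1, and over genes with a control mean of at least 0.1, 1, 5 and 5 of 9 rose in batch 1 and 5 of 10 in the N211del line of batch 2. LIPA, the lysosomal acid lipase, rose by 0.39, 1.21 and 1.04 in the INTS11, INTS8 and N211del lines of batch 1 (limma adjusted p = 0.00316, 5.36e-10 and 6.91e-09). MYLIP, which marks the LDL receptor for degradation, rose by 1.01 in the INTS8 line and by 1.17 and 1.69 in the N211del line of batch 1 and batch 2 (3.84e-12, 4.36e-13 and 1.02e-09), and its 0.12 in the INTS11 line of batch 1 did not pass (0.113) except after centring (0.16, adjusted p = 0.0261). The lysosomal protease gene CTSB rose by 0.25 in the INTS11 line at 3 h of batch 2 (0.00138).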

How the data were processed

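The 24 TT-seq libraries were taken as deposited, with groups, times and replicate numbers from the labels (where the treatment protocol gives 3 h for all, titles and characteristics were used). The authors deposited 1 file per library, in FPKM per the file headers. The submitters' processing notes name DESeq2 1.26.0, Picard 2.23.3, SAMtools 1.9, STAR 2.7.5c and Trim Galore 0.6.6, and the builds hg19 and mm10. The sources used here do not give gene models, library scaling or the use of strand in counting, and overlapping genes and close relatives are uncertain. In batch 1 values times length were whole numbers with no library factor, for 6832 genes. In batch 2 this took lengths 1 bp longer and factors of 0.565 to 0.753 (99.9 to 100% of values whole within 0.02).

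Log2(value + 0.1) was fitted per batch with limma 3.58.1 in R 4.3.3, 1 mean per group and a trended, robust spread, for genes with a mean of at least 0.1, with two-sided p-values adjusted by Benjamini-Hochberg in each of 14 comparisons. All fold changes are of value + 0.1, so those of low genes are understated. The fit was tested on simulated data. Alternatives were centring, other pseudocounts (0.01, 1), other filters (none, a mean of 1), voom, a replicate block, only the libraries compared, leaving out each library and, chosen after seeing the data, averaging alike library pairs and counting only genes with a control mean of at least 0.1. The 3 genes, the lists and the tests were chosen with earlier results of these data known. Named genes were the 3 transporters, the 3 largest rises and falls among called ABC genes at 3 h with both treated libraries beyond both controls, the 2 largest called changes of each further list, the nearest neighbours and the 5 most alike genes. Some genes that the rule names are not reported here, though counts include them. Promoter sequences and neighbours came from RefSeq tables of GRCh38.p14, matched by symbol for 3 of 3 genes. Tables and figures used Python 3.11.15 and matplotlib 3.10.9.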

Additional observations from a re-analysis of the deposited data

Results flagged for a closer look

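By the interaction test (limma, adjusted over all genes), the response to dTAG13 differed between lines for ABCB4, CFTR, ABCB9, ABCD3 and ABCG2. In part this held only under the main scaling. On the log2 scale the response of the INTS8 line exceeded that of the INTS11 line by 0.92 for ABCB4 and 0.66 for CFTR in batch 1 (adjusted p = 0.00193 and 0.00174), and both passed after each library was centred on its median (0.78 and 0.52). That of the N211del line exceeded the INTS11 line in batch 1 by 0.79 for ABCB9 and 0.56 for ABCD3 (0.00215 and 0.000753), which passed after centring with 0.50 and 0.26 (adjusted p = 0.0366 and 0.00456). It also did so by 0.68 for ABCG2 and 0.45 for CFTR (0.0157 and 0.0166), which did not pass after centring (0.39 and 0.15, adjusted p = 0.112 and 0.233). In batch 2 at 3 h it did so by 0.93 for ABCB4, 0.55 for ABCB9, 0.50 for ABCD3 and 0.81 for CFTR (0.00631, 0.00212, 0.000115 and 7.58e-05), all 4 of which passed after centring, and by 0.63 for ABCG2 (0.0366), which did not (0.48, adjusted p = 0.0602). The fit also called ABCG1, with 0.83 and 1.17 in batch 1 and batch 2. Its N211del controls were under 0.1 in both batches, as was its INTS11 control mean in batch 1 (0.064). These values depend on the pseudocount, so no test of ABCG1 is given and nothing is read from them. ABCC1, ABCC4 and ABCD4 were also called in 1 or 2 of these comparisons, and in none of them as higher after centring. For ABCB1 every N211del library at 3 h of batch 2 lay above and every INTS11 library below its 0 h libraries, with a difference of 1.02 between the responses that was not tested.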

How the results depend on the processing

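For the 3 transporters 266 of 297 values under other settings moved by less than the spread between replicates and 31 moved further. With a pseudocount of 1 the log2 differences of ABCA5 became 0.24, 0.77 and 0.90 in the INTS11, INTS8 and N211del lines of batch 1, 0.21 in the INTS11 line at 1 h, 0.89 and 0.87 in the N211del line at 1 h and 3 h, and 0.27 for INTS8 against INTS11 at rest, while ABCB1 at 0 h differed by 0.95 between lines. With each library centred on its median, ABCB1 became 0.91 and 0.72 in the INTS8 and N211del lines of batch 1, -0.0042 and -0.16 in the INTS11 line at 1 h and 3 h, and 0.62 and 0.72 in the N211del line. ABCA5 became 1.08 in the N211del line of batch 1, 0.18 in the INTS11 line at 1 h, and 0.97 and 1.11 in the N211del line of batch 2. ABCB10 became 0.15 and 0.11 in the INTS8 and N211del lines of batch 1, 0.29 in the INTS11 line at 1 h, and 0.11 and 0.10 in the N211del line of batch 2. Between lines at rest in batch 1, centring gave (INTS8 against INTS11, N211del against INTS8, N211del against INTS11) ABCB1 0.20, 0.033 and 0.23, ABCA5 0.020 and 0.39 in the last 2, and ABCB10 -0.020, -0.17 and -0.19. Signs turned for ABCB1 in the INTS11 line at 1 h, for ABCB10 between INTS8 and INTS11, and for ABCB1 and ABCA5 between N211del and INTS8. The cause was not tested.

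Leaving out 1 library gave ABCB1 0.92 to 1.02 and 0.86 to 0.97 in the N211del line at 1 h and 3 h and 0.94 to 1.05 between lines at 0 h, ABCA5 1.17 to 1.48 in the N211del line at 1 h, and ABCB10 0.27 to 0.47 in the N211del line of batch 1 and 0.15 to 0.32 in the INTS11 line at 3 h of batch 2. The number of other ABC genes called ranged from 4 to 6 in the INTS11 line of batch 1 (4 without treated replicate 2), 5 to 9 in it at 3 h of batch 2 (5 without 0 h replicate 1, 6 without 3 h replicate 2) and 1 to 3 between INTS8 and INTS11 at rest (1 without INTS8 DMSO replicate 1). Differing responses ranged from 3 to 5 for INTS8 against INTS11 (5 without treated INTS8 replicate 2), and from 5 to 9 for N211del against INTS11 in batch 1 (5 without N211del DMSO replicate 1 or treated replicate 2) and in batch 2 (5 without INTS11 3 h replicate 1 or N211del 0 h replicate 1). A group left with 1 library was assumed to vary like the others.

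Of 140 counts of other ABC genes under other settings 132 stayed within 1.5 times. Each count is of genes called, rises plus falls, so a shift between rises and falls is not seen in it. Centring gave such shifts. The N211del line of batch 1 went from 10 higher and 0 lower to 6 and 3. The INTS11 line at 1 h went from 7 higher and 1 lower to 4 and 4. Differing responses of INTS8 and INTS11 numbered 5 after centring, 5 with only the libraries compared and 6 with voom on whole-number units, and those of N211del and INTS11 in batch 1 numbered 3 after centring. Averaging library pairs within counting noise, an alternative chosen after seeing the data, gave 3 calls in the INTS11 line of batch 1, 6 at 3 h of batch 2, and 2 and 4 differing responses of N211del and INTS11 in batch 1 and batch 2. It leaves fewer libraries in the fit.

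Same-numbered libraries did not deviate together: 0 of 15 pairs of groups in each batch had a correlation of deviations over 0.1 (-0.10 to 0.08 and -0.08 to 0.04). With the replicate number as a block the count of called ABC genes was 9 in the INTS11 line at 1 h, and 7, 10 and 10 in the INTS11, INTS8 and N211del lines of batch 1. Of the 3 transporters ABCA5 rests on the fewest units, 76 to 345 per library.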
